A study of Drosophila melanogaster with 18 samples.

Results

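Ferritins, transferrins, a divalent metal transporter and metallothioneins were followed in RNA from Drosophila melanogaster heads. The group was defined by name as 10 genes: Fer1HCH, Fer2LCH, Tsf1, Tsf2, Tsf3, Mvl, MtnA, MtnB, MtnC and MtnD. Of these, 9 were among the 10884 genes of the male ageing table and 9 among the 10480 genes of the female comparison. MtnB was not analysed in males and MtnC was not analysed in females.

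The study set out to find genes that may be under the transcription factor foxo and to see how they change with age. Polyadenylated RNA of whole heads was sequenced from 18 libraries. The wild type in every comparison was the line 5905, which carries w1118, so all control flies were also white mutants. The female groups were 5905 and foxo c431/c431, 3 libraries each, both at day 3 after eclosion. The male groups were 5905 at days 3, 15, 30 and 45, 3 libraries each, with no mutant among them. What kind of lesion c431 is, and whether replicate libraries came from separate collections of flies, is not stated in the labels. If they did not, the p-values measure only technical spread. The head is a mixed tissue, and fewer cells of a type cannot be told apart from less RNA per cell in these libraries.

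Iron is stored in flies in ferritin, a shell of heavy chains (Fer1HCH), which carry the ferroxidase centre that oxidises iron, and light chains (Fer2LCH), with which they assemble in the secretory pathway. Tsf1 is the transferrin of the hemolymph, which binds iron and carries it between gut and fat body. It is also produced in response to infection. Tsf2 is a membrane-anchored transferrin needed for septate junctions, Tsf3 is a further family member, and Mvl (Malvolio) is the NRAMP-type transporter of iron and other divalent metals. Metallothioneins are small cysteine-rich proteins that bind copper, zinc and cadmium. Their genes are induced by metals through the metal-responsive transcription factor MTF-1.

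Several of these genes lie close together, which bears on how their reads could be assigned. In dm6, Fer1HCH (3R, 30385573 to 30388178, minus strand) and Fer2LCH (3R, 30387804 to 30390584, plus strand) overlap head to head by 375 bases, of which 118 are exonic in both. Whether the libraries or the counting kept strand is not stated, so it is not known if reads from those bases could be told apart. MtnC (3R, 20360308 to 20360634), MtnB (3R, 20503102 to 20503746) and MtnD (3R, 20534962 to 20535301) sit in one region of arm 3R. The start of MtnE, another metallothionein gene, is 257 bases from the start of MtnD on the opposite strand. MtnA lies apart, at 3R, 9783407 to 9784370. Tsf1 is on the X chromosome (18387084 to 18390344), Tsf2 on 3L (12530436 to 12533724), and Mvl on 3R (21051383 to 21060800). Tsf3 is on 2R (16226501 to 16229869), where it shares 169 exonic bases with CG15706 on the other strand. All members are annotated as protein-coding.

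Levels in males are given as normalized counts, which are reads per gene that the authors scaled between libraries. Differences were tested with limma on log2(value + 1), and a gene is called where the adjusted p is under 0.05. The male libraries held 2999956 to 4102364 reads in genes, at which depth 1 read was worth 0.836 to 1.22 normalized counts. Markers of neurons, photoreceptors and glia were detected at every age, as the tissue label states. At day 45, 3 of 4 neuron markers (median log2 change -0.58), 4 of 5 photoreceptor markers (-0.56) and all 4 muscle markers tested (-1.31) were called lower than at day 3, and 3 of 5 glia markers higher and 1 lower. Their part in the members' changes with age was not tested. Replicate 1 of day 3 stood apart in muscle genes (summed 12288 normalized counts, against 7772 and 7878 in the other day 3 libraries and 3588 to 4289 at later ages). Among the members, Tsf1, Tsf2, Tsf3 and MtnA were all lowest in that library, so their changes are also given without it. Levels of 14 genes of humoral immunity summed to 436 to 668 at day 3 and to 5416 to 16472 at day 45.

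Of the 10 members, 7 reached 10 normalized counts in a library of every age: both ferritin chains, the 3 transferrins, Mvl and MtnA. Of these 7, 5 differed between ages, while both ferritin chains did not pass (limma F test, adjusted p under 0.05, met by 31.5% of all 8921 genes tested). Compared with day 3, 2 of the 7 were higher at day 15 (5.95% of all genes were called higher), 4 at day 30 (15.0%) and 5 at day 45 (17.4%). None was called lower, against 7.42%, 16.5% and 18.3% of all genes in those comparisons. The median log2 change of the 7 members was 0.36, 0.34 and 0.71, beside medians of 0.00 (day 15), 0.02 (day 30) and 0.00 (day 45) over all genes tested. The 3 comparisons share the day 3 libraries. Between adjacent later ages, MtnA was higher at day 30 than at day 15 (0.919% of all genes were called higher and 0.998% lower), Mvl was higher at day 45 than at day 30 (0.28%), and MtnA was lower (0.135%). MtnC did not pass the filter on low values. MtnD passed it only through its 3 libraries of day 30 and 1 of day 45, so it is left out of these counts, and its tests are given from the fit with no filter.

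**Figure D1:**
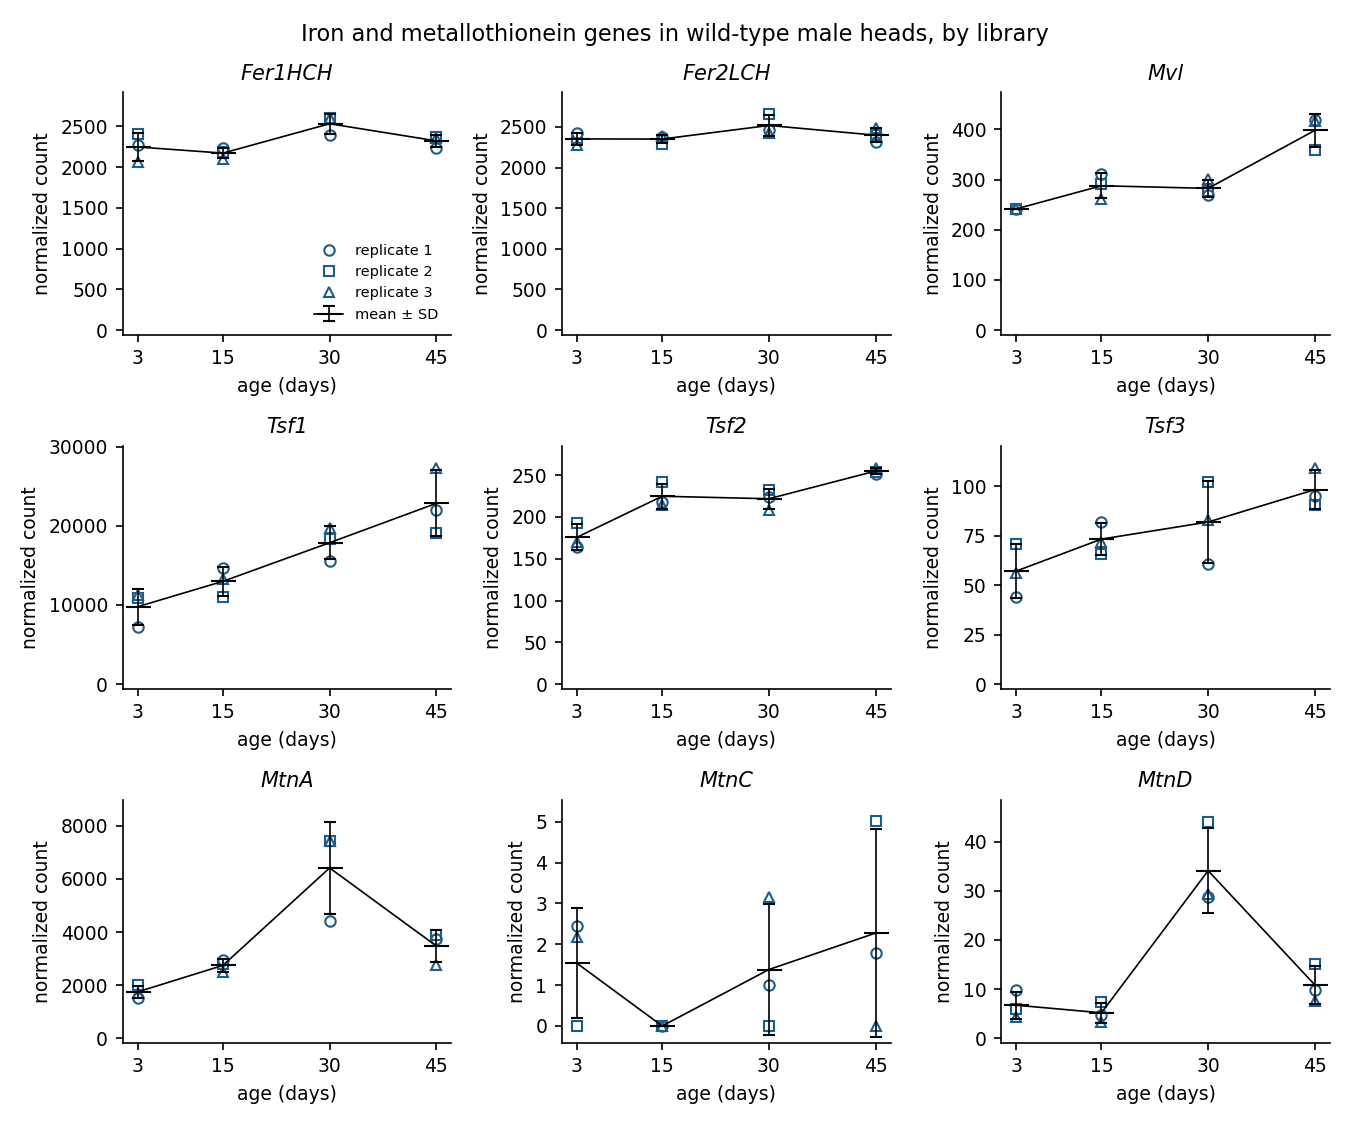
Normalized counts (vertical axes, which include 0) of 9 genes against age in days in wild-type male heads. Open symbols are libraries by replicate number, and bars with lines are mean ± SD of 3 libraries. Fer1HCH and Fer2LCH keep to between 2059 and 2664 at all ages, Tsf1 climbs to between 19127 and 27368 at day 45, and MtnA and MtnD are highest at day 30.

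The ferritin chains were the steadiest members. Fer1HCH had normalized counts of 2272, 2411 and 2059 at day 3, of 2229.7, 2185 and 2101 at day 15, of 2389, 2603 and 2605 at day 30, and of 2233, 2373 and 2360.4 at day 45. The day 30 libraries were all above those of day 15 and of day 45, but 1 of them lay below the highest of day 3. The log2 change from day 3 to day 30 was 0.17 (SE 0.07, 95% interval 0.02 to 0.33) and did not pass (limma, adjusted p = 0.0805). Without replicate 2 of day 3 it was 0.23 and passed, with an adjusted p of 0.0355 by limma. To day 45 it was 0.05, with a 95% interval of -0.10 to 0.20 (limma, adjusted p = 0.636).

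Fer2LCH had 2424, 2361 and 2273 normalized counts at day 3, then 2378, 2290.3 and 2387 at day 15, 2462, 2664 and 2431 at day 30, and 2314, 2398 and 2485 at day 45. Only at day 30 did every library exceed the highest of day 3, and the margin was narrow. The log2 change to day 30 was 0.10 (95% interval -0.04 to 0.24) and the change to day 45 was 0.03 (95% interval -0.11 to 0.17), neither passing the test (limma, adjusted p = 0.288 and 0.780). From day 3 to day 15 the intervals were -0.20 to 0.11 for Fer1HCH and -0.14 to 0.14 for Fer2LCH, so larger changes lay outside them.

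The chains were also compared with each other, per length of exon. The ratio of Fer1HCH to Fer2LCH was 0.662 ± 0.0413 (SD, n = 3) at day 3, 0.641 ± 0.0268 at day 15, 0.698 ± 0.0393 at day 30 and 0.672 ± 0.0139 at day 45. The libraries of each later age overlapped those of day 3 (exact permutation tests, two-sided, p = 0.6, 0.4 and 0.8 for days 15, 30 and 45). With 3 libraries an age the smallest p possible is 0.1, so this design could not have passed 0.05. The shared exonic bases are part of both lengths, and how their reads were counted is not stated. The level of the ratio also depends on the lengths used, 2376 bases for Fer1HCH and 1648 for Fer2LCH, which merge the exons of all annotated transcripts. Not scaled by length, the mean ratio was 0.955 at day 3, 0.924 at day 15, 1.006 at day 30 and 0.968 at day 45.

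Tsf1, the hemolymph transferrin, was higher at days 30 and 45 than at day 3. It had 7164, 10906 and 11267 normalized counts at day 3, then 14678, 10997 and 13309 at day 15, 15608, 18291 and 19726 at day 30, and 22063, 19127 and 27368 at day 45. Every library of days 30 and 45 was above every library of day 3, while 1 library of day 15 fell within the day 3 range and 1 of day 45 within that of day 30. From day 3 the level was 1.86 times as high at day 30 (log2 change 0.89, SE 0.17, limma adjusted p = 0.000587). At day 45 it was 2.36 times as high (log2 change 1.24, SE 0.17, limma adjusted p = 2.05e-05).

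The steps of Tsf1 between adjacent ages did not pass: log2 changes were 0.43 to day 15, 0.46 from there to day 30 and 0.35 from there to day 45 (limma, adjusted p = 0.0946, 0.166 and 0.580). When only the libraries of days 15 and 30 were fitted, the middle step passed, with an adjusted p of 0.0356 by limma. Without replicate 1 of day 3, where Tsf1 was lowest, the log2 changes from day 3 were 0.22 (limma, adjusted p = 0.400), 0.68 (0.00266) and 1.03 (5.60e-05) at days 15, 30 and 45. Tsf1 alone took 0.196% to 0.318% of all reads in genes at day 3 and 0.594% to 0.807% at day 45.

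Among the humoral immunity genes, 5 of 14 were called higher at day 15, 12 at day 30 and all 14 at day 45 by the same test. Within day 45, replicate 3 was highest both in Tsf1 and in those genes (summed 16472 normalized counts), and replicate 2 was lowest in both (5416). At day 30, Tsf1 was highest in replicate 3, where those genes were lowest (2273). At day 3, Tsf1 was lowest in replicate 1, where they were highest (668), and highest in replicate 3, where they were lowest (436). Head fat body markers summed to between 19378 and 20553 at day 3, 21160 and 26224 at day 30, and 21576 and 23744 at day 45. Of 7 tested, 2 were called higher at day 30, Lpin and apolpp. The latter alone averaged 18464 normalized counts at day 3 and 22384 at day 30. At day 45 1 was called higher, Yp2, at a mean of 3.83 at day 3 and 9.62 at day 45. The part of the immunity genes or of fat body in the rise of Tsf1 was not tested.

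Tsf2, the septate junction transferrin, was higher at each later age. Its normalized counts were 164, 193 and 170.2 at day 3, then 218, 242 and 215 at day 15, 224, 233 and 209 at day 30, and 252, 254 and 259 at day 45. No library of a later age overlapped day 3. The log2 changes were 0.36 (SE 0.09), 0.34 (SE 0.09) and 0.54 (SE 0.09) at days 15, 30 and 45, and all passed (limma, adjusted p = 0.0137, 0.00778 and 0.000160). The day 15 call was lost without replicate 1 of day 3 (log2 change 0.31, limma adjusted p = 0.0671) and without replicate 2 of day 15 (0.30, 0.0634). It was also lost with DESeq2 on the recovered reads (0.35, adjusted p = 0.0678). Without replicate 1 of day 3 the changes to days 30 and 45 were 0.29 and 0.49 (limma, adjusted p = 0.0386 and 0.00116).

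Tsf3 was expressed at a lower level and rose by day 45. Its normalized counts were 44.0, 71.0 and 56.4 at day 3, then 82.1, 66.0 and 71.9 at day 15, 60.7, 102 and 82.9 at day 30, and 95.02, 90.5 and 109.5 at day 45. The libraries of days 15 and 30 overlapped day 3, and those of day 45 did not. The log2 change to day 45 was 0.79 (SE 0.18, limma adjusted p = 0.00286), and 0.62 without replicate 1 of day 3 (limma adjusted p = 0.0198). The change to day 30 was 0.51 (SE 0.18) and was at the threshold (limma, adjusted p = 0.0450). It no longer passed by edgeR (adjusted p = 0.0554) or DESeq2 (0.0837), in a fit of days 3 and 30 alone (0.0797), without a filter on low values (0.0509), or when any of 8 libraries was left out, with adjusted p up to 0.224. Without replicate 1 of day 3 the change was 0.34 to day 30 (limma, adjusted p = 0.216) and 0.20 to day 15 (0.583). The 8 libraries were replicates 1 and 3 of day 3, 2 and 3 of day 15, 2 and 3 of day 30, and 1 and 2 of day 45.

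Mvl, the NRAMP-type transporter, was nearly identical among day 3 libraries, at 241.8, 242.1 and 240.7 normalized counts. It stood at 310.3, 292 and 261 at day 15, at 269, 278 and 301 at day 30, and at 419, 359.5 and 416 at day 45. All later libraries were above day 3, and all of day 45 were above every earlier one. The log2 change from day 3 to day 45 was 0.71 (SE 0.09, limma adjusted p = 9.18e-06), a level 1.64 times as high.

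The changes of Mvl to days 15 and 30 were 0.25 and 0.22 on the log2 scale and did not pass (limma, adjusted p = 0.0719 and 0.0623). From day 30 to day 45 it rose by 0.49 (SE 0.09, limma adjusted p = 0.0192). That call was lost when any of replicates 1, 2 or 3 of day 30 or replicate 1 of day 45 was left out, with log2 changes of 0.46, 0.48, 0.54 and 0.45 and limma adjusted p of 0.0604, 0.0840, 0.0716 and 0.114.

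**Figure D2:**
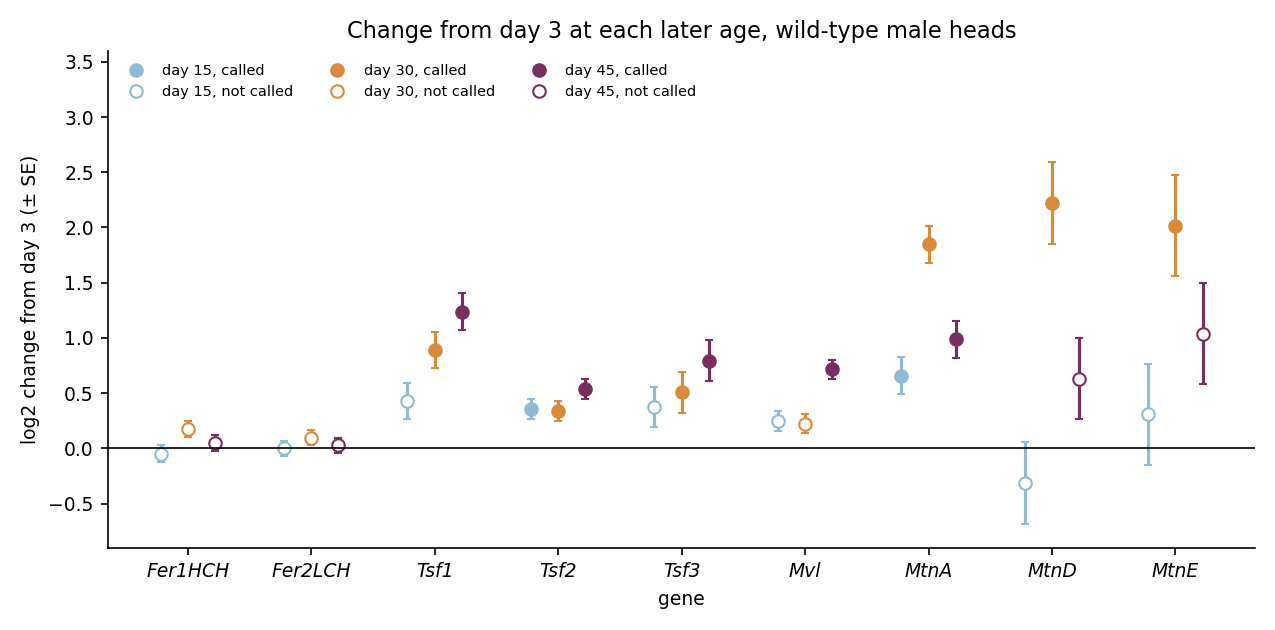
Log2 change from day 3 (vertical axis, ± SE) of the 8 members tested and of MtnE in male heads at days 15, 30 and 45, by limma with 3 libraries an age. Filled points have an adjusted p under 0.05. All points are from the fit with the filter, which MtnD and MtnE passed through days 30 and 45 alone, so their filled points are no test by themselves. With no filter their day 30 changes had limma adjusted p of 0.000153 and 0.00198. The ferritin chains stay between -0.05 and 0.17, Tsf1 reaches 1.24 at day 45, and MtnA, MtnD and MtnE peak at day 30 at 1.85, 2.22 and 2.02.

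MtnA, the most abundant metallothionein here, rose to day 30 and was lower again at day 45. Its normalized counts were 1528, 1992 and 1702 at day 3, then 2949, 2801 and 2474 at day 15, 4401, 7433 and 7416 at day 30, and 3755, 3891 and 2773 at day 45. The libraries of day 30 lay above all others, with replicate 1 well below the other two. Those of days 15 and 45 lay above day 3 and overlapped each other.

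From day 3, MtnA was 3.603 times as high at day 30 (log2 change 1.85, SE 0.17, limma adjusted p = 1.14e-06). The ratio was 1.98 at day 45, a log2 change of 0.99 (SE 0.17, limma adjusted p = 0.000214). At day 15 it was 1.58, a log2 change of 0.66 (SE 0.17, limma adjusted p = 0.0156). The step from day 15 to day 30 was 1.19 (SE 0.17, limma adjusted p = 0.00393), ranked 48th from the highest among 8921 genes. The step from day 30 to day 45 was -0.86 (SE 0.17, limma adjusted p = 0.0325), ranked 34th from the lowest.

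Some of these calls for MtnA were lost when a single library was left out. The day 15 call was lost without replicate 1 of day 3 (log2 change 0.57, limma adjusted p = 0.0753), replicate 1 of day 15 (0.61, 0.0721) or replicate 2 of day 15 (0.64, 0.0511). The fall from day 30 to day 45 was lost without replicate 2 of day 15 (-0.86, limma adjusted p = 0.0566), replicate 2 of day 30 (-0.73, 0.156), replicate 3 of day 30 (-0.74, 0.265) or replicate 1 of day 45 (-0.92, 0.0878). It was also lost when days 30 and 45 were fitted alone (adjusted p = 0.0961), while edgeR and DESeq2 on all libraries called it (adjusted p = 0.0181 and 0.00768). Without replicate 1 of day 3 the changes from day 3 to days 30 and 45 were 1.76 and 0.90.

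MtnD was near the limit of detection except at day 30. Its normalized counts were 9.77, 6.003 and 4.34 at day 3, then 4.77, 7.33 and 3.34 at day 15, 28.9, 44.1 and 29.4 at day 30, and 9.86, 15.1 and 7.59 at day 45. These rest on 18, 16, 101 and 36 reads in all at the 4 ages. The day 30 libraries were above all others. Those of day 3 overlapped both day 15 and day 45, and those of day 45 lay above those of day 15.

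MtnD was 4.67 times as high at day 30 as at day 3, a log2 change of 2.22, and 5.81 times as high as at day 15, a log2 change of 2.54. In the fit with no filter, where its place did not depend on its level, both passed (limma, adjusted p = 0.000153 and 0.00229). These folds are on the log2(value + 1) scale, which understates changes of low genes. From day 30 to day 45 its log2 change was -1.59, which did not pass with no filter (limma, adjusted p = 0.0680) or with the filter (0.0848). Some other fits with the filter called this fall. They were edgeR (adjusted p = 0.0165), limma with a pseudocount of 10 (log2 change -1.08, adjusted p = 0.0185), limma on days 30 and 45 alone (0.0428) and limma with the replicate number as a block (0.0480). MtnD entered all fits with the filter through its high day 30 libraries, so these calls lend no support to a fall from day 30. The level at day 45 was not separable from that at day 3 (log2 change 0.63, with no filter limma adjusted p = 0.201). In the fit with the filter the 95% interval of this change was -0.15 to 1.41.

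MtnC gave 16 reads over all male libraries, in 6 of 12. It had 2.44, 0 and 2.17 normalized counts at day 3, 0.995, 0 and 3.15 at day 30, 1.79, 5.03 and 0 at day 45, and 0 in every library of day 15. A count of 0 there allows up to 3 reads, or 2.51 to 3.14 normalized counts a library, for counting error alone. A difference between ages was not detectable at this depth.

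MtnE and MtnF, the other metallothionein genes measured, are not members and were set beside them. MtnE, the neighbour of MtnD, had 3.66, 6.003 and 3.25 normalized counts at day 3, then 2.86, 6.28 and 8.35 at day 15, 12.9, 34.1 and 17.8 at day 30, and 8.07, 16.8 and 6.50 at day 45. Like MtnD, it passed the filter only through the 3 libraries of day 30 and 1 of day 45. In the fit with no filter it rose by 2.02 on the log2 scale from day 3 to day 30 (limma, adjusted p = 0.00198). MtnF lay between 7.35 and 22.6 normalized counts and passed no test, with a log2 change of -0.76 at day 45 (limma, adjusted p = 0.0856).

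Markers of gut, another tissue rich in metallothioneins, were low in the heads. The 6 genes summed to between 104 and 149 normalized counts at day 3, 91.7 and 150.4 at day 15, 119 and 232 at day 30, and 193 and 315 at day 45, with none at 0 in all libraries of an age. Of 4 tested, 1 was called higher at day 30 and 1 at day 45, and both calls were of Amy-p. Its mean was 52.1 normalized counts at day 3, 125 at day 30 and 178 at day 45. The median log2 change of the 4 from day 3 was -1.19 at day 30 and -0.12 at day 45. The sums of day 30 overlapped those of day 3, and all sums of day 45 lay above them. The highest sums were at day 45, and the highest MtnA, MtnD and MtnE levels at day 30. Replicate 2 of day 30, the highest in all 3 of those genes, summed to 143 in the gut markers. The part of gut RNA in the metallothionein levels was not tested.

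Scaled by exon length, the members fell into abundant and scarce groups. At day 3, normalized counts per kilobase were 3426 ± 796 (SD, n = 3) for Tsf1, 2487 ± 335 for MtnA, 1428 ± 46.2 for Fer2LCH and 946 ± 74.6 for Fer1HCH. The scarce members were Tsf2 at 60.9 ± 5.36 per kilobase, Mvl at 42.8 ± 0.131, MtnD at 24.5 ± 10.2, Tsf3 at 24.0 ± 5.70 and MtnC at 5.74 ± 4.99. Tsf1 and MtnA overlapped within their SD at day 3, as did MtnD and Tsf3. At day 30 MtnA stood first among the members, at 9167 ± 2493 per kilobase, against 6263 ± 732 for Tsf1, again with overlap. Among the 10701 genes with an annotated length, MtnA ranked 60th at day 3, 10th at day 30 and 21st at day 45, and Tsf1 ranked 28th, 14th and 11th. Fer2LCH and Fer1HCH ranked 157th and 246th at day 3 and 170th and 243rd at day 45.

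The genes whose log2 levels ran most like 3 of the members over the 12 male libraries are given as a description. Only tested genes were ranked, with all members left out. For Tsf1 they were CG34215 (Pearson r 0.99), pst (0.97) and the ribosomal protein gene RpL35A (0.97). For MtnA they were Dis3, an exosome nuclease (0.91), the kinase gene CaMKI (0.90) and CG14615 (0.90). For Fer1HCH they were the nucleolar GTPase gene Non1 (0.87), the autophagy gene Atg14 (0.84) and Ccz1 (0.83). The libraries of an age share that age, so these values carry no test.

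Other genes of metal handling gave a mixed picture with age. Of 48 listed genes 40 were tested, and 3 were higher and 1 lower at day 15 than at day 3, 12 and 1 at day 30, and 12 and 4 at day 45. Of all genes tested, 5.95% were called higher and 7.42% lower at day 15, 15.0% and 16.5% at day 30, and 17.4% and 18.3% at day 45. Between days 15 and 30, and between days 30 and 45, none of the 40 passed.

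For iron handling, 2 of 6 genes rose by day 45 and none fell. Irp-1B, a cytosolic aconitase of the iron regulatory protein family, went from 446 ± 46.7 to 730 ± 65.1 normalized counts (SD, n = 3; log2 change 0.71, SE 0.09, limma adjusted p = 8.38e-06). Mco1, a multicopper oxidase, went from 22.4 ± 4.56 to 53.2 ± 10.7 (1.21, SE 0.20, 0.000176). In iron-sulfur cluster assembly 3 of 5 rose and none fell. They were the cysteine desulfurase Nfs1, from 166 ± 17.0 to 312 ± 15.0, the scaffold IscU, from 849.6 ± 71.1 to 1151 ± 11.5, and bcn92, with log2 changes of 0.91, 0.44 and 0.38 (limma, adjusted p = 7.07e-07, 0.000145 and 0.0186).

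In heme metabolism 2 of 8 rose and 1 fell. Alas, the first enzyme of heme synthesis, fell from 384 ± 20.2 to 265 ± 13.9 normalized counts (log2 change -0.53, SE 0.08, limma adjusted p = 5.79e-05). Coprox and the ferrochelatase gene FeCH, of the last steps, were higher by 0.43 and 0.32 on the log2 scale (limma, adjusted p = 0.0357 and 0.0207).

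Among 8 copper genes 1 rose and 1 fell by day 45. MTF-1, the factor that induces metallothioneins, was at 97.4 ± 12.5 normalized counts at day 3 and at 133 at both day 30 (SD 14.1) and day 45 (SD 15.0), with log2 changes of 0.45 and 0.44 (limma, adjusted p = 0.0132 and 0.0120). The copper chaperone gene Atox1 fell by 0.33 on the log2 scale (limma, adjusted p = 0.0129). Of 13 zinc transporters 4 rose and 2 fell, from Zip89B at a log2 change of 1.19 (limma, adjusted p = 3.67e-05) and Zip48C at 0.67 (0.000852) to ZnT77C at -0.65 (0.0276).

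**Figure D3:**
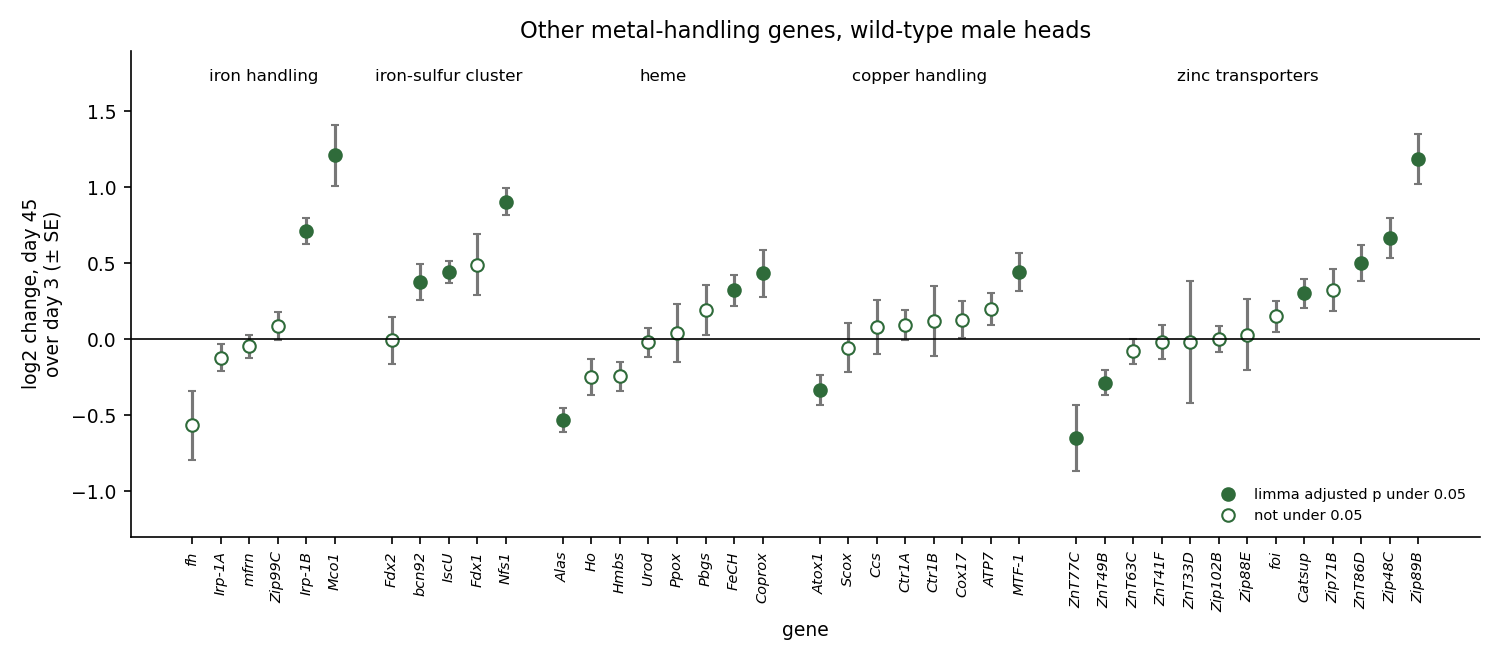
Log2 change from day 3 to day 45 (vertical axis, ± SE) of 40 other metal-handling genes in male heads, in 5 lists and ordered by change within each. Filled points have a limma adjusted p under 0.05. All 3 called iron-sulfur genes lie above 0, while each of the heme, copper and zinc lists has called genes on both sides.

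For the foxo mutant the authors' deposited table gives 1 comparison of day 3 females, with no value per library, so no spread could be shown. In it foxo itself was listed 1.25 times as high in the mutant (log2 change 0.33, adjusted p = 0.00460), so the gene's own level gives no check of the genotype. The direction of all values below was taken from the name of the authors' deposited table. It is not given whether the authors' fold changes were shrunken toward 0.

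Of 9 members in the authors' deposited table, 4 were higher in the foxo mutant (adjusted p under 0.05, with 6.26% of 9860 genes called higher) and none was lower (6.51%). They were both ferritin chains, Tsf3 and MtnD. The median log2 change of the 9 members was 0.23 and that of all genes 0.00 in the authors' deposited table.

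Fer1HCH was listed 0.28 higher on the log2 scale (SE 0.07, adjusted p = 0.000901, mean normalized count 2964) in the authors' deposited table. Fer2LCH was listed 0.23 higher (SE 0.07, adjusted p = 0.00582, mean 3091) in the authors' deposited table. Neither chain passed between ages in males, and whether the mutant and age changes differ was not tested. Tsf3 was higher by 0.57 (SE 0.17, adjusted p = 0.0106, mean 111) and MtnD by 0.64 (SE 0.20, adjusted p = 0.0175, mean 9.43) in the authors' deposited table.

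No other member reached the threshold. The authors' deposited table put Tsf1 at a log2 change of -0.05 (SE 0.22, adjusted p = 0.948) and Tsf2 at -0.07 (SE 0.13, adjusted p = 0.846). For Mvl the authors' deposited table gave 0.27 (SE 0.13, adjusted p = 0.165), and for MtnA 0.12 (SE 0.08, adjusted p = 0.455). MtnB had 0.23 (SE 0.15, adjusted p = 0.402) at a mean of 2.34 normalized counts in the authors' deposited table, so few reads lie behind it. Of the genes that are not members, the authors' deposited table had MtnE at 0.08 and MtnF at 0.07 (adjusted p = 0.894 and 0.925).

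**Figure D4:**
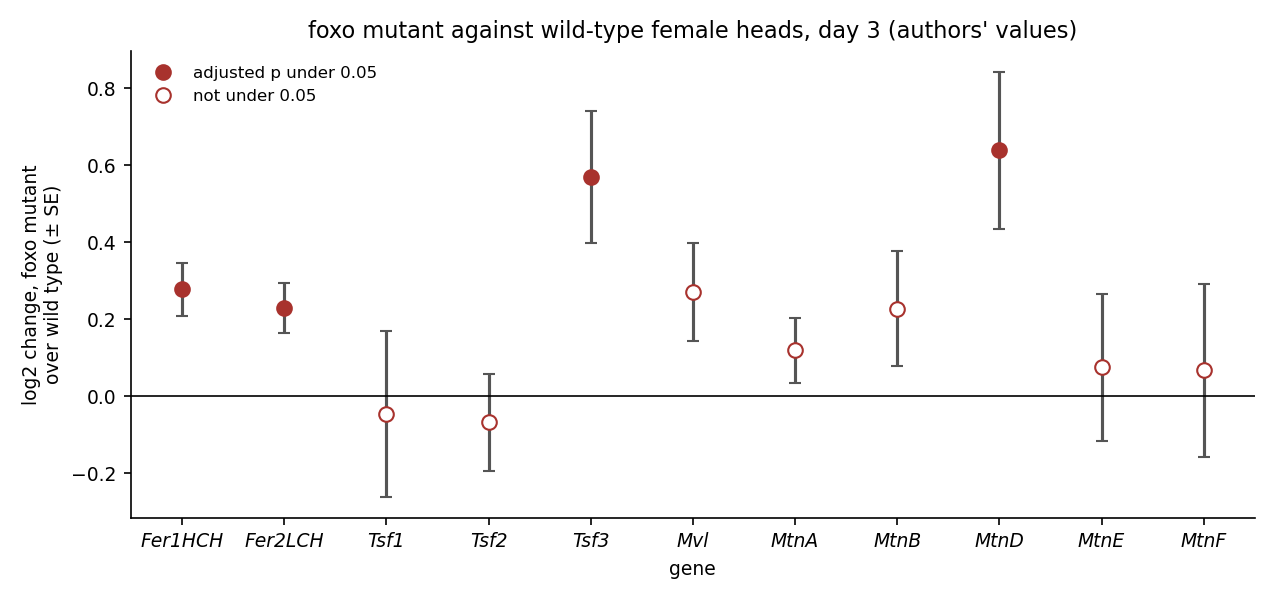
Log2 change of foxo mutant over wild type in day 3 female heads (vertical axis, ± SE), as listed in the authors' deposited table from 3 libraries a genotype, for 9 members and for MtnE and MtnF. Filled points, for Fer1HCH, Fer2LCH, Tsf3 and MtnD, have an adjusted p under 0.05 and lie between 0.23 and 0.64.

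Among the other metal-handling genes, the authors' deposited table called 3 of 41 higher and 1 lower, beside 6.26% and 6.51% of all genes. The zinc transporter genes ZnT77C (0.61, adjusted p = 0.00702) and ZnT86D (0.52, adjusted p = 0.00258) and Irp-1B (0.27, adjusted p = 0.0263) were higher on the log2 scale in the authors' deposited table. IscU was lower, at -0.25 (adjusted p = 0.0147), in the authors' deposited table. Markers of other cell types also differed in the authors' deposited table. There, 4 of 6 hemocyte markers and 5 of 8 head fat body markers were higher, 2 of those 8 and 4 of 5 neuron markers were lower, and none of 5 tested gut markers passed. Of photoreceptor markers 2 of 5 were lower, of muscle markers 2 of 5 higher and of humoral immunity genes 3 of 10 higher in the authors' deposited table. Their part in the ferritin, Tsf3 and MtnD values of the authors' deposited table was not tested.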

How the data were processed

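Per the labels' protocols, heads were taken at the stated age, RNA was isolated with Trizol and the NEBNext Ultra kit was used. Per the submitters' processing notes, STAR, HTSeq, DESeq and dm6 were used, with no versions. The male values are a signal that the authors normalized by size factors. All (100.0%) were within 0.001 reads of whole reads, which were recovered. The female table holds the log2 fold changes, standard errors, test statistic (a score) and p-values that the authors deposited, without values per library, so a planned fit of those libraries was replaced by their values. Of its genes 620 have no adjusted p.

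For ages, log2(value + 1) of genes reaching 10 in at least 3 libraries (8921 genes) was fitted with limma 3.58.1 in R 4.3.3, all 4 ages together, with Benjamini-Hochberg adjustment and a threshold of 0.05. MtnD and MtnE, which passed only through days 30 and 45, were read from the same fit with no filter. Alternatives were edgeR 4.0.16 and DESeq2 1.42.0 on recovered reads, other scaling, filters and pseudocounts, a replicate block, and leaving out libraries. The limma script was tested on simulated data. At day 45 against day 3 limma called 3184 genes, edgeR 3136 and DESeq2 2483. Ratios were compared with exact permutation tests in scipy 1.17.1. Positions and exon lengths, merged over all transcripts of a gene, came from Ensembl's annotation of dm6. Female names were matched by symbol (8339) or synonym (2031).

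All members are named, with MtnE and MtnF and up to 3 called genes of largest change per metal list. So are the 3 tested genes, other than members, most correlated with Fer1HCH, Tsf1 and MtnA. Members, lists and this rule were chosen with earlier results of these data known.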

Additional observations from a re-analysis of the deposited data

How the results depend on the processing

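No result reversed under any alternative. Of 1028 values of single genes under other settings, 990 kept their side of the threshold, 27 lost it and 11 gained it, and the signs of 16 uncalled values differed. Counts of members called are over the 8 that passed the filter, MtnD included. With DESeq2 on recovered reads, the members called fell from 2 to 1 at day 15 against day 3. They also fell from 2 to 1 at day 30 against day 15, where MtnD had no adjusted p. DESeq2 called 837 and 197 of 8919 genes in these comparisons, and the main fit 1193 and 171 of 8921. A filter of 50 in 3 libraries also left 1 member at day 30 against day 15, since it removed MtnD. It called 177 of 6678 genes there. In the fits that left out 1 library each, the members called ranged from 0 to 2 at day 15 against day 3, from 4 to 6 at day 30, and stayed at 5 at day 45. They stayed at 2 from day 15 to day 30, where MtnA and MtnD were called in the main fit. MtnD passed the filter only through days 30 and 45. Over the 7 members at 10 in a library of every age, the main fit called 1 there. From day 30 to day 45 the members called ranged from 0 to 2, and in the F test from 5 to 6. Genes called in all by the F test ranged from 2134 to 2900 of 8921 in the fits that left out 1 library each. At day 15 against day 3 the 0s came without replicate 1 of day 3 or replicate 2 of day 15. Genes called in all then fell from 1193 to 624 and 832. From day 30 to day 45 the 0s came without replicate 2 or 3 of day 30 or replicate 1 of day 45. Genes called in all then fell from 37 to 21, 3 and 5. Without single libraries, genes called in all ranged over 2129 to 2989 at day 30 and 2524 to 3194 at day 45 against day 3. From day 15 to day 30 the range was 13 to 293, with 171 in the main fit. The causes were not tested.

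Same-numbered male libraries did not deviate together (r from -0.25 to 0.15 over 18 pairs, against -0.18 to 0.30 over 36 pairs of different numbers). This cannot show whether same-numbered libraries shared a batch or collection, which the labels do not state. With the number as a block, the members called were 2, 5 and 5 at days 15, 30 and 45 against day 3. They were 2 from day 15 to day 30 and 3 from day 30 to day 45, with MtnD among the genes counted. Genes called in all, of 8921, were 1145, 2760 and 3118 against day 3. They were 140 from day 15 to day 30 and 43 from day 30 to day 45. The log2 ratio of the ferritin chains against day 3 ranged over -0.08 to 0.00, 0.03 to 0.13 and -0.02 to 0.07 at days 15, 30 and 45 without single libraries. The 4 calls of the mutant comparison held with p-values adjusted over all genes with a p. A threshold of 0.1, which keeps those 4 by definition, added no other member. Its block and left-out libraries were not run, since the table used has no value per library. Scaling and other settings moved the median of all genes by at most 0.02 (log2). Values of MtnB, MtnC, MtnD, MtnE and MtnF rest on few reads.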
